A study of Mus musculus with 2 samples.

Results

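The genes described here are 10 regulators of the step at which a dividing cell either passes from G1 into S phase or leaves the cycle: the Cdk inhibitors Cdkn1a, Cdkn1b, Cdkn2a, Cdkn2b and Cdkn2c, the D-type cyclins Ccnd1, Ccnd2 and Ccnd3, and the pocket proteins Rb1 and Rbl2. They were taken by symbol from the 26100 genes listed for both libraries, and all 10 were found. The study turned mouse embryonic fibroblasts into muscle progenitors and profiled single cells with a droplet assay that tags each captured RNA 3′ end with a molecular barcode, the UMI. The MEF library held the fibroblasts, grown in fibroblast medium by their own treatment label, although the protocol text attached to them repeats that of the other culture. The iMPC library held induced myogenic progenitor cells, made out of such fibroblasts by MyoD, a master regulator of muscle, with a treatment abbreviated F/R/C, and kept in medium with F/R/C. Both libraries carried the genotype Tg:Pax7-nGFP/C57BL6;DBA2, a nuclear reporter of Pax7, the iMPC culture is described as 1 stable clone, and ages are not given in the labels. Each group held 1 library. No comparison was therefore tested, library and group cannot be told apart between MEF and iMPC, and the 95% intervals given below are exact and hold counting error alone.

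In G1, D-type cyclins activate Cdk4 and Cdk6, and these kinases with cyclin E and Cdk2 phosphorylate the pocket proteins, which then release E2F factors and allow the genes of S phase to be transcribed. INK4 inhibitors bind Cdk4 and Cdk6, while Cip/Kip inhibitors act mainly on Cdk2 complexes. In skeletal muscle, myoblasts leave the cycle before they fuse. Cdkn1a and Cdkn1c are known for their part in that exit and Rb1 for keeping it permanent, and Ccnd3 is the D cyclin known to remain in differentiating muscle cells.

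Cells were sorted into sets by their own UMIs. Pax7 cells, the satellite cell-like progenitors, had at least 1 UMI of Pax7 and 0 of Myog. Myog cells, the committed myoblasts, had at least 5 UMIs of Myog and at most 1 of Ckm. Both were split by Top2a, a topoisomerase of dividing cells. Cells with 0 UMIs of it are called non-cycling below, and cells with at least 3 cycling. These names stand for Top2a counts alone. Whether cells with 0 UMIs had left the cycle was not tested, so they may include dividing cells in G1. They were also shallower in each type. In Pax7 cells their median was 14939 UMIs against 23187 in cycling cells. It was 21288.5 against 29412 in Myog cells and 18123 against 25456.5 in MEF cells, which were split in the same way. Ckm cells, the myocytes, had at least 5 UMIs of muscle creatine kinase, and Dcn cells at least 5 UMIs of the fibroblast proteoglycan decorin. Of 9349 iMPC cells with at least 8036 UMIs and at most 20% mitochondrial UMIs, 892 were non-cycling and 994 cycling Pax7 cells, 906 non-cycling and 585 cycling Myog cells, 1037 Ckm cells and 553 Dcn cells. The sets left 4507 iMPC cells out, and 125 cells stood in more than 1 set, all through Dcn. Of 6043 MEF cells, 5264 were non-cycling and 390 cycling. A threshold in UMIs favours deep cells, and median UMIs per cell ran from 14939 in non-cycling Pax7 cells to 42148 in Ckm cells.

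The sets were described with marker lists, which include the genes that defined the sets, so part of these sums was fixed by the sorting. The 6 committed myoblast markers summed to 3675 UMIs per 1000000 of the set (CPM) in non-cycling Myog cells and to 291 in non-cycling Pax7 cells. Myog itself gave 1595 CPM of the former and, by rule, 0 of the latter. The 8 myocyte markers reached 52240 CPM in Ckm cells, 409 CPM of it Ckm itself, against 96.2 in MEF cells. The 8 fibroblast markers stood at 6411 CPM in MEF cells and 5178 CPM in Dcn cells, 1162 CPM of the latter being Dcn itself. Single markers differed between them. Dcn cells held less Col1a1 (509 against 2289 CPM) and Col1a2 (494 against 2097 CPM) than MEF cells. They held more Col3a1 (2174 against 711 CPM), Lum (119 against 33.9 CPM) and, by their rule, Dcn (1162 against 268 CPM). The 8 markers also summed to 2010.0 CPM in non-cycling and 956 CPM in cycling Pax7 cells. In non-cycling and cycling Myog cells they summed to 182 and 445 CPM, and in Ckm cells to 141 CPM. The Dcn cells also held myocyte RNA, at 4770 CPM against 1218 in non-cycling Pax7 cells, so they were not free of muscle signal, whose part in their values was not tested. Myocyte RNA was also plentiful in the free RNA of the iMPC library, at 29260 CPM. The 10 satellite cell markers summed to 629 CPM in non-cycling Pax7 cells, 125 CPM of it Pax7 itself. They summed to 335 CPM in MEF cells, where 3 of the 10 were at 0. MEF cells also held 4118 CPM of 4 smooth muscle markers, against 118 CPM in iMPC, and its part in the comparison of the libraries was not tested. The 4 endothelial markers summed to at most 0.657 CPM and the 4 immune markers to at most 3.61 CPM in any set. Doublet calls made up 14.7% of cycling Myog cells, 8.78% of Ckm cells, 8.14% of Dcn cells and 0.0% of non-cycling Pax7 cells. They were kept, as the sets are defined without that filter, and ratios without them are given below for some results.

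RefSeq promoter sequences on GRCm38.p6, from 250 bases before to 50 after a start site, were available here for 7 of the 10 genes. Those of Cdkn1a, Cdkn2a and Cdkn2b are shown because Cdkn1a moved in the opposite direction to Cdkn2a and Cdkn2b between Pax7 and Myog cells. Capitals mark the E-box CANNTG, the palindromic motif that MyoD and Myog bind.

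Cdkn1a, first start, chr17:29090729-29091028, plus strand: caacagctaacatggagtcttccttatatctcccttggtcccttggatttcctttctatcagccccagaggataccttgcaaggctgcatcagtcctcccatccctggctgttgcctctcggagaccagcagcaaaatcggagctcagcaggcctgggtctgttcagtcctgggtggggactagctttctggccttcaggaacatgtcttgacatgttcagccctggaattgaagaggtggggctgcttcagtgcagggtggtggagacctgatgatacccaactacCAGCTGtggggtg

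Cdkn1a, second start, chr17:29093519-29093818, plus strand: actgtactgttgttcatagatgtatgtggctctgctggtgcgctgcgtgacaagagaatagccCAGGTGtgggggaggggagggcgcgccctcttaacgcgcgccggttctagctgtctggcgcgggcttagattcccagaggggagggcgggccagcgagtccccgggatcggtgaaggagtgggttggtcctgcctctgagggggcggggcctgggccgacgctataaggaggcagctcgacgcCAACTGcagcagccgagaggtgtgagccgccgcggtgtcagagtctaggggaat

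Cdkn2a, first start, chr4:89294570-89294869, minus strand: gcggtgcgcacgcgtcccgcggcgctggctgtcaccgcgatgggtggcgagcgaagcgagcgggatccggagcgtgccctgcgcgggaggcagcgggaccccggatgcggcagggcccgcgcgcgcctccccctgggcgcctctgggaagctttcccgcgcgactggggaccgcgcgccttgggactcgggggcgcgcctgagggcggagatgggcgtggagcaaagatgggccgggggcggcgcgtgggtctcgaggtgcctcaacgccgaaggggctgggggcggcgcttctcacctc

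Cdkn2a, second start, chr4:89282143-89282442, minus strand: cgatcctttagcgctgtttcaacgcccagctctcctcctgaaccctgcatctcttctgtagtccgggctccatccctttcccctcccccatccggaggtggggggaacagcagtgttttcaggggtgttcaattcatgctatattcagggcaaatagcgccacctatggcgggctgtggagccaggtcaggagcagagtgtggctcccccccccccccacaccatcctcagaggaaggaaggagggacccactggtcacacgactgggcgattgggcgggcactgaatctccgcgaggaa

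Cdkn2b, chr4:89310983-89311282, minus strand: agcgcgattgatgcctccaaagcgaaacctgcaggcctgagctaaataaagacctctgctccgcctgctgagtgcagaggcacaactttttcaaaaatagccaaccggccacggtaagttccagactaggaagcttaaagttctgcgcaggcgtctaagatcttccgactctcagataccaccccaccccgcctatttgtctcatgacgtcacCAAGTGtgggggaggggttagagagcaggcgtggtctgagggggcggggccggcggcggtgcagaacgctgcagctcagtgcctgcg

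The first Cdkn1a window held 1 E-box, CAGCTG, and the second held 2, CAGGTG and CAACTG. The Cdkn2b window held 1, CAAGTG, and neither Cdkn2a window held one. Among 32851 promoter windows of the same length, read on both strands, 72.3% held CANNTG and 16.3% held CAGCTG, which is one of its forms, so the presence of an E-box did not set the Cdkn1a windows apart. The E2F motif TTTCCCGC stood in the first Cdkn2a window and in 1.07% of all windows. The GC box GGGCGG stood 3 times in that window, once in the second Cdkn2a window, once in the Cdkn2b window and 2 times in the second Cdkn1a window, against 35.7% of all windows with at least 1. Cdkn2a lay at chromosome 4, 89274471 to 89294653, and Cdkn2b 11645 bases away at 89306299 to 89311039, both on the minus strand (GENCODE M21).

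Among the Cip/Kip inhibitors, Cdkn1a (ENSMUSG00000023067, chromosome 17, 29090976 to 29100727, plus strand), which encodes p21, was above Cdkn1b in all 8 sets and highest in the differentiating cells. Its level was 524 CPM in non-cycling and 351 CPM in cycling Pax7 cells, 1082 CPM in non-cycling and 716 CPM in cycling Myog cells, and 1295 CPM in Ckm cells. Dcn cells held 792 CPM, non-cycling MEF cells 653 CPM and cycling MEF cells 513 CPM. Ckm and non-cycling Myog cells were thus the highest and cycling Pax7 cells the lowest, a 3.69-fold range, and only the intervals of non-cycling Pax7 and cycling MEF cells overlapped between neighbours in this order. Cdkn1a was 2.06-fold higher in non-cycling Myog than in non-cycling Pax7 cells (log2 ratio 1.05, interval 1.01 to 1.08). It was 2.04-fold higher among cycling cells as well (log2 ratio 1.03, 0.99 to 1.07). Both ratios lie close to 2-fold, and as a mean of each cell's own CPM they were 0.94 and 0.96. Within each type, cycling cells held less: the log2 ratio of cycling to non-cycling cells was -0.58 in Pax7 cells, -0.60 in Myog cells and -0.35 in MEF cells. After each cell was thinned to 5000 UMIs, 78.6% of non-cycling Pax7 cells had a Cdkn1a UMI (75.8 to 81.2%, exact binomial; 94.0% unthinned). The share was 94.5% in non-cycling Myog cells (92.8 to 95.9%; 99.01% unthinned) and 97.1% in Ckm cells. Free RNA, profiled in iMPC barcodes of 200 to 600 UMIs, would give a Cdkn1a UMI in 6.45% of thinned non-cycling Pax7 cells and in 4.57% of Myog cells.

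Cdkn1b (ENSMUSG00000003031, chromosome 6, 134920401 to 134925513, plus strand), which encodes p27, ran the other way. It stood at 78.8 CPM in non-cycling and 73.2 CPM in cycling Pax7 cells, 77.7 CPM in Dcn cells, 41.6 CPM in non-cycling and 50.5 CPM in cycling Myog cells, and 33.2 CPM in Ckm cells. Non-cycling MEF cells held 10.2 CPM and cycling MEF cells 26.2 CPM. Every iMPC set was thus above both MEF sets, and Pax7 and Dcn cells, with overlapping intervals, were the highest. The fall from non-cycling Pax7 to non-cycling Myog cells had a log2 ratio of -0.92 (-1.05 to -0.79), short of 2-fold. A p27 UMI was found in 30.3% of thinned non-cycling Pax7 cells (61.5% unthinned), 19.6% of non-cycling Myog cells (53.2% unthinned) and 5.25% of non-cycling MEF cells (15.2% unthinned). Cdkn1b protein is known to be set largely by its degradation, which RNA counts do not show. The remaining Cip/Kip gene, Cdkn1c (p57), is not one of the 10. It stood at 223 CPM in non-cycling Pax7 cells and 3264 CPM in non-cycling Myog cells, a log2 ratio of 3.87 (3.82 to 3.93), and fell back to 1863 CPM in Ckm cells.

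**Figure D1:**
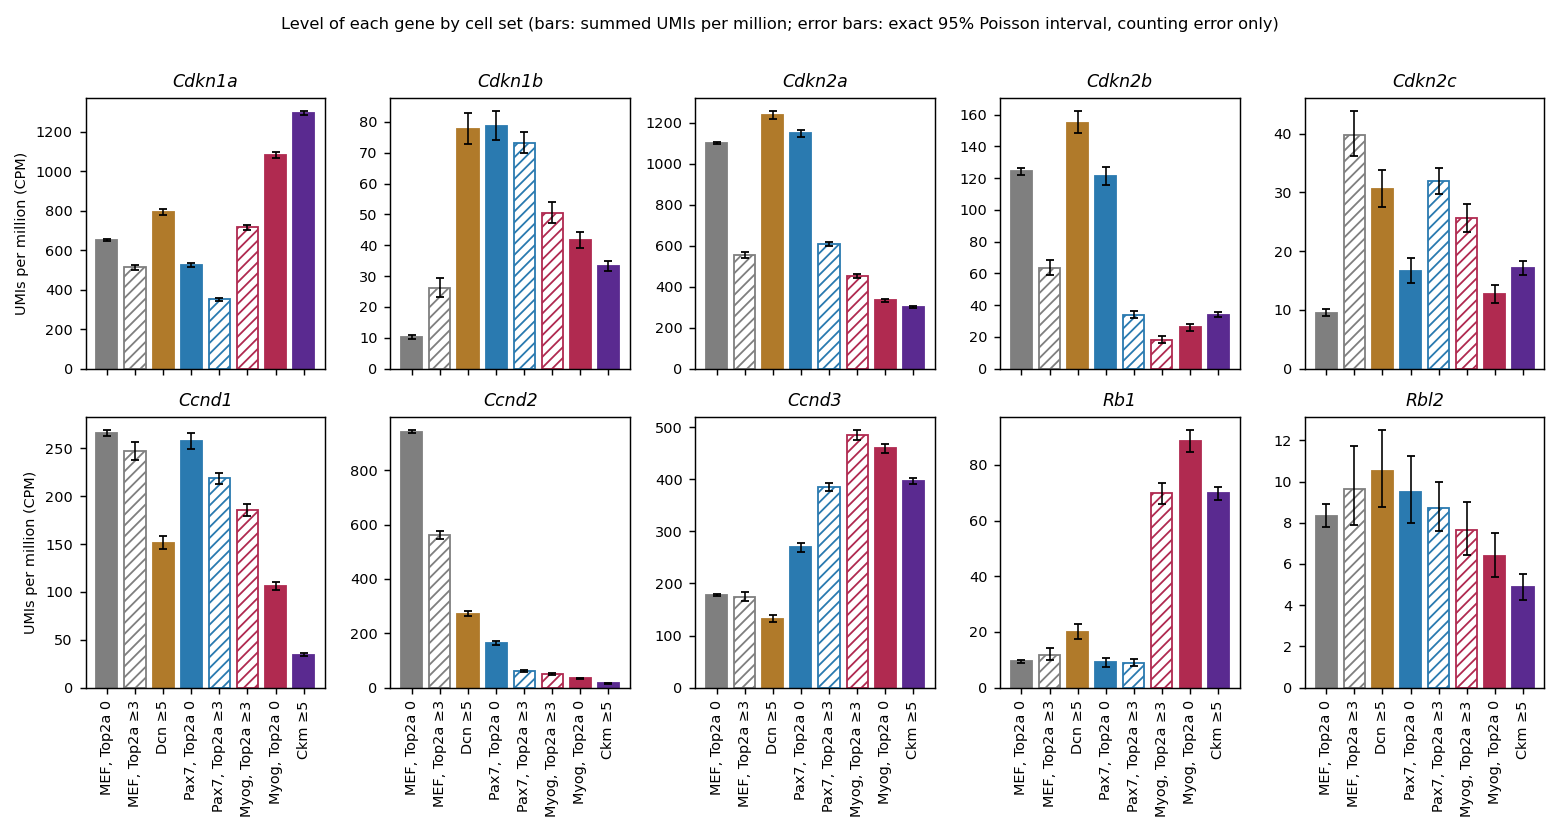
Level of each of the 10 genes (vertical axis, CPM) in 8 cell sets (horizontal axis), with bars for summed UMIs, hatching for cycling sets and exact 95% Poisson intervals. Cdkn1a is highest in Ckm and non-cycling Myog cells and Rb1 in the Myog and Ckm sets, Cdkn2a and Cdkn2b are highest in Dcn, non-cycling Pax7 and non-cycling MEF cells, Ccnd2 is highest in the MEF sets, and Ccnd3 in the Myog sets.

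Of the INK4 inhibitors, Cdkn2a (ENSMUSG00000044303) was high in fibroblasts and progenitors and low in differentiating cells. The locus encodes p16Ink4a and, from the first start above, p19Arf, which restrains Mdm2. Both RNAs share their 3′ exons, so the UMIs did not separate them. Cdkn2a stood at 1238 CPM in Dcn cells, 1150.0 CPM in non-cycling Pax7 cells and 1101 CPM in non-cycling MEF cells. It stood at 610 CPM in cycling Pax7, 556 CPM in cycling MEF, 453 CPM in cycling Myog, 334 CPM in non-cycling Myog and 299 CPM in Ckm cells. Dcn cells, which were not split by Top2a and held 92.5 CPM of it, were the highest, non-cycling Myog and Ckm cells the lowest, and no neighbouring intervals overlapped. Non-cycling Myog cells were 3.44-fold below non-cycling Pax7 cells (log2 ratio -1.78, -1.82 to -1.74), while among cycling cells the log2 ratio was -0.43 (-0.47 to -0.39). Thinned shares were 95.2% in non-cycling Pax7 cells (99.7% unthinned), 70.4% in non-cycling Myog cells (97.0% unthinned) and 67.3% in Ckm cells (97.9% unthinned), so the RNA remained detectable in most differentiated cells. Free RNA would give at most 4.82% in any of these iMPC sets.

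Cdkn2b (ENSMUSG00000073802), which encodes p15Ink4b, broadly followed its neighbour over the sets at a lower level, but not within Myog cells. It stood at 155 CPM in Dcn cells, 124 CPM in non-cycling MEF cells, 121 CPM in non-cycling Pax7 cells and 63.5 CPM in cycling MEF cells. The remaining sets, Ckm at 34.1 CPM, cycling Pax7 at 33.9 CPM, non-cycling Myog at 26.0 CPM and cycling Myog at 18.2 CPM, were all lower. Cycling Myog cells thus held less Cdkn2b than non-cycling ones, while they held more Cdkn2a (453 against 334 CPM). Cdkn2a and Cdkn2b had a Pearson r of 0.88 over the 8 sets (log2 of CPM plus 1), 1 of 55 pairs computed among the 10 genes and Cdkn1c. It was not the highest of these, as Rb1 and Cdkn1c had 0.95. These sets share libraries, so r is a description. Cdkn2b was 4.65-fold lower in non-cycling Myog than in non-cycling Pax7 cells (log2 ratio -2.22, -2.36 to -2.08, and -1.63 with marker counts in thinned cells) and 3.57-fold lower in cycling than in non-cycling Pax7 cells (log2 ratio -1.84, -1.96 to -1.72). Doublet calls bore on its level in cycling Myog cells. Without them the log2 ratio of cycling to non-cycling Myog cells was -1.31 in place of -0.51. That of cycling Myog to cycling Pax7 cells was -1.75 in place of -0.90. Thinned to 5000 UMIs, 36.6% of non-cycling Pax7 cells, 14.0% of cycling Pax7 cells and 7.84% of non-cycling Myog cells had a Cdkn2b UMI, against 57.0%, 33.8% and 28.0% unthinned.

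Cdkn2c (ENSMUSG00000028551, chromosome 4, 109660876 to 109667189, minus strand), which encodes p18Ink4c, was higher in cycling cells of each type. Cycling and non-cycling levels were 31.9 and 16.7 CPM in Pax7 cells, 25.6 and 12.7 CPM in Myog cells, and 39.9 and 9.51 CPM in MEF cells. The log2 ratios were 0.94 (0.73 to 1.15), 1.01 (0.80 to 1.23) and 2.07 (1.90 to 2.23). The gene stayed below 50 CPM in every set, so it did not enter the counts of genes past 2-fold given below. Dcn cells held 30.6 CPM and Ckm cells 17.1 CPM. The last INK4 gene, Cdkn2d (p19Ink4d), which is not one of the 10, was likewise above its non-cycling level in cycling Pax7 cells (76.8 against 26.1 CPM) and reached 84.7 CPM in Ckm cells.

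Among the D-type cyclins, Ccnd1 (ENSMUSG00000070348, chromosome 7, 144929931 to 144939925, minus strand), the form known to answer growth factors, declined with differentiation. It stood at 257 CPM in non-cycling and 219 CPM in cycling Pax7 cells, 186 CPM in cycling and 106 CPM in non-cycling Myog cells, and 34.4 CPM in Ckm cells. Dcn cells held 152 CPM and the non-cycling and cycling MEF cells 266 and 247 CPM. MEF and non-cycling Pax7 cells were the highest, with overlapping intervals, and Ckm cells the lowest by far. The log2 ratio of non-cycling Myog to non-cycling Pax7 cells was -1.28 (-1.36 to -1.20), or -0.96 as a mean of each cell's own CPM. That of Ckm to non-cycling Myog cells was -1.62 (-1.71 to -1.53). It was -2.02 without doublet calls and -2.29 where the sets were drawn by marker counts in thinned cells. Thinned shares were 52.5% in non-cycling Pax7 cells, 31.5% in non-cycling Myog cells and 12.8% in Ckm cells, against 75.2%, 57.2% and 43.0% unthinned.

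Ccnd2 (ENSMUSG00000000184, chromosome 6, 127125162 to 127152193, minus strand) had the widest range of the 10, 60.8-fold between its highest and lowest set. It stood at 943 CPM in non-cycling and 563 CPM in cycling MEF cells, 272 CPM in Dcn cells, 164 CPM in non-cycling Pax7 cells and 61.4 CPM in cycling Pax7 cells. Cycling Myog cells held 50.8 CPM, non-cycling Myog cells 34.1 CPM and Ckm cells 15.5 CPM. Both MEF sets were above every iMPC set, no neighbouring intervals overlapped, and within iMPC the fibroblast-like Dcn cells were the highest. Over whole libraries Ccnd2 was 11.2-fold lower in iMPC than in MEF, 80.7 against 904 CPM (log2 ratio -3.48, -3.51 to -3.46). The Dcn cells were 3.32-fold below MEF (log2 ratio -1.73, -1.78 to -1.68). A Ccnd2 UMI was found in 93.85% of thinned non-cycling MEF cells, 60.8% of Dcn cells, 40.2% of non-cycling Pax7 cells and 6.56% of Ckm cells (97.0%, 83.7%, 59.2% and 25.8% unthinned).

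Ccnd3 (ENSMUSG00000034165, chromosome 17, 47505051 to 47599691, plus strand) was the D cyclin that was higher in the myogenic sets. It stood at 485 CPM in cycling and 460 CPM in non-cycling Myog cells, 397 CPM in Ckm cells, and 385 and 270 CPM in cycling and non-cycling Pax7 cells. Non-cycling MEF cells held 178 CPM, cycling MEF cells 175 CPM and Dcn cells 132 CPM. The Myog sets were the highest, and the fibroblast-type sets the lowest. Non-cycling Myog cells were 1.7-fold above non-cycling Pax7 cells (log2 ratio 0.77, 0.72 to 0.82), which did not pass 2-fold. Dcn cells were 2.04-fold below non-cycling Pax7 cells (log2 ratio -1.03, -1.11 to -0.94). That ratio was -1.45 without doublet calls and -1.77 with marker counts in thinned cells. Thinned shares were 63.6% in non-cycling Pax7 cells, 84.5% in non-cycling Myog cells and 78.3% in Ckm cells, against 88.5%, 98.7% and 99.4% unthinned. Free RNA, which held 323 CPM of Ccnd3, would give 4.54%, 3.21% and 1.63% in these sets.

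The 3 cyclins together summed to 1386 CPM in non-cycling MEF cells, 691 CPM in non-cycling Pax7 cells, 600 CPM in non-cycling Myog cells and 447 CPM in Ckm cells. Each molecule gives 1 UMI from its 3′ end, so these levels were compared between genes without a correction for length, and differences in capture between genes were not tested. Their make-up moved further than their sum. In non-cycling MEF cells 68.0% of the UMIs were Ccnd2 (67.8 to 68.2%), 19.2% Ccnd1 and 12.8% Ccnd3. In non-cycling Pax7 cells Ccnd1 made up 37.2%, Ccnd2 23.7% and Ccnd3 39.0% (38.1 to 40.0%). Ccnd3 made up 57.9% in cycling Pax7 cells, 67.2% in cycling and 76.65% in non-cycling Myog cells (75.9 to 77.4%), and 88.8% in Ckm cells (88.4 to 89.3%). In Dcn cells Ccnd2 was again the largest share, at 49.0% (47.8 to 50.2%).

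**Figure D2:**
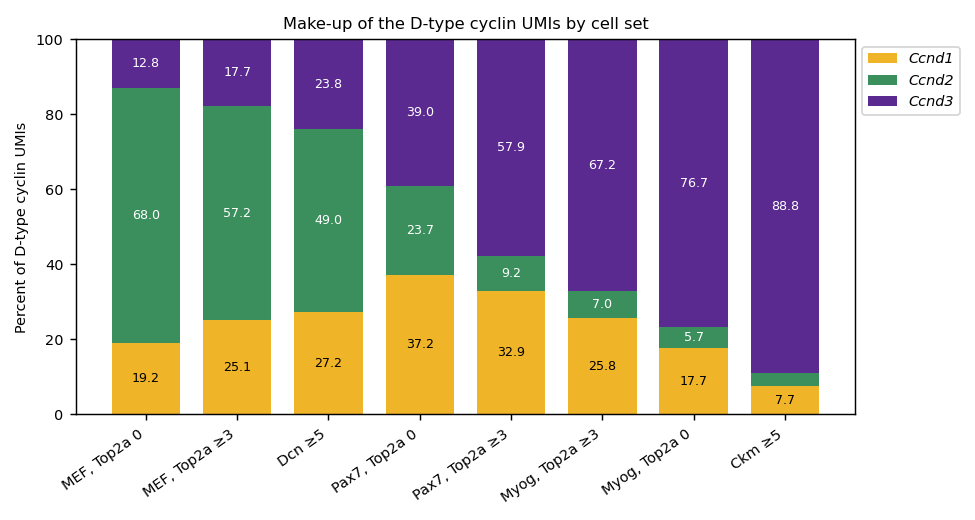
Share of Ccnd1, Ccnd2 and Ccnd3 (vertical axis, percent of the UMIs of the 3 genes) in 8 cell sets (horizontal axis). Ccnd2 is the largest share in MEF and Dcn cells, no cyclin exceeds 39.0% in non-cycling Pax7 cells, and Ccnd3 reaches 88.8% in Ckm cells.

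The kinases that D cyclins bind were taken from a fixed list with them. Cdk4 stood at 215 CPM in non-cycling Pax7 cells, 161 CPM in non-cycling Myog cells and 75.5 CPM in Ckm cells, and in cycling Pax7 and cycling Myog cells at 316 CPM each. Cdk6 fell from 58.2 CPM in non-cycling Pax7 cells to 21.9 CPM in non-cycling Myog cells (log2 ratio -1.41, -1.58 to -1.25). Of the 6 genes of this list, which holds the 3 D cyclins too, 3 were past 2-fold lower in non-cycling Myog cells (Cdk6, Ccnd1 and Ccnd2) and 0 higher, against 17.3% and 12.1% of all genes. The list's median log2 ratio was -0.85 against -0.04 over all genes.

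Of the pocket proteins, Rb1 (ENSMUSG00000022105, chromosome 14, 73183673 to 73325822, minus strand), the retinoblastoma protein that holds back E2F factors, had the largest ratio of the 10 between Pax7 and Myog cells. It stood at 9.03 CPM in non-cycling and 8.96 CPM in cycling Pax7 cells, and at 9.37 and 11.8 CPM in non-cycling and cycling MEF cells. It stood at 88.5 CPM in non-cycling and 69.7 CPM in cycling Myog cells, 69.8 CPM in Ckm cells and 20.04 CPM in Dcn cells. The intervals of the Myog and Ckm sets lay above those of every other set, and the 2 Pax7 sets did not differ beyond their intervals. The log2 ratio of Myog to Pax7 cells was 3.29 (3.04 to 3.56, 9.81-fold) among non-cycling and 2.96 (2.75 to 3.17, 7.78-fold) among cycling cells. Without doublet calls these ratios were 3.31 and 3.0. The log2 ratio of Dcn to non-cycling Pax7 cells was 1.15 with doublet calls and 0.56 without them. An Rb1 UMI was found in 4.71% of thinned non-cycling Pax7 cells (3.41 to 6.31%; 12.1% unthinned) and in 34.2% of non-cycling Myog cells (31.1 to 37.4%; 76.3% unthinned), and free RNA would give 0.616% and 0.433%.

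Rbl2 (ENSMUSG00000031666, chromosome 8, 91070057 to 91123844, plus strand), which encodes p130, the pocket protein of resting cells, was scarce in every set. Its levels lay between 4.87 CPM in Ckm cells (4.27 to 5.53) and 10.51 CPM in Dcn cells (8.77 to 12.5), a 2.16-fold range. The intervals of all neighbours in the order overlapped, but those of these 2 extremes did not. The log2 ratio of non-cycling Myog to non-cycling Pax7 cells was -0.58 (-0.93 to -0.23), from 141 and 136 UMIs. Thinned shares lay between 2.98% and 5.41%, and whether a change in few cells could be detected at this depth was not tested. Rbl1 (p107), the E2F-regulated pocket protein that is not one of the 10, stood at 15.1 CPM in cycling and 4.20 CPM in non-cycling Pax7 cells.

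**Figure D3:**
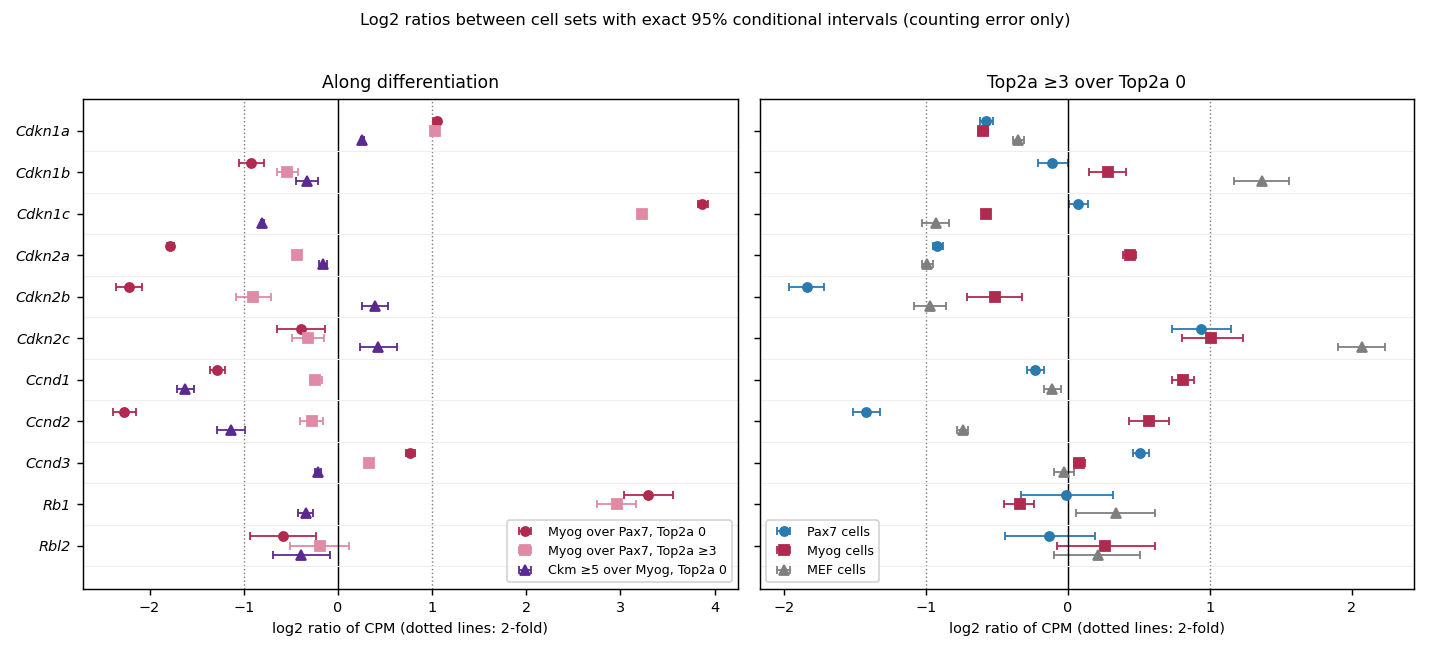
Log2 ratios of CPM (horizontal axis) for the 10 genes and Cdkn1c (vertical axis), with exact 95% intervals. The left panel sets Myog against Pax7 cells and Ckm against non-cycling Myog cells, and the right panel sets cycling against non-cycling cells within Pax7, Myog and MEF cells. Rb1 and Cdkn1c lie furthest to the right on the left panel, and Cdkn2a, Ccnd1 and Ccnd2 lie on opposite sides of 0 in Myog and Pax7 cells on the right panel.

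Counts past 2-fold were taken over genes that reached 50 CPM in the higher of the sets compared, and all genes measured in that way give the background. Between non-cycling Myog and Pax7 cells, 8 of the 10 genes reached 50 CPM. Cdkn1a and Rb1 were higher, against 12.1% of all genes, and Cdkn2a, Cdkn2b, Ccnd1 and Ccnd2 were lower, against 17.3%. Fibroblast markers moved with the lower genes, of which Cdkn2a and Cdkn2b were highest in Dcn cells: all 5 measured of 8 were past 2-fold lower in Myog cells, among them Col3a1 (95.8 against 1231 CPM) and Dcn (5.15 against 120.7 CPM). Their part in these 4 ratios was not tested. Between cycling Myog and Pax7 cells, 7 genes reached it, Cdkn1a and Rb1 were again higher, against a background of 4.13%, and none was lower, against 2.59%. Between Ckm and non-cycling Myog cells, Ccnd1 alone of 5 was past 2-fold, lower, against 3.4% of all genes, and 4.32% were higher. Ckm cells were not split by Top2a and held 23.7 CPM of it, against 0 by rule in the Myog set. Their Mki67 stood at 9.45 CPM, against 4.34 CPM there. Over whole libraries, 7 genes reached 50 CPM. Cdkn1b (55.3 against 12.2 CPM) and Ccnd3 (373 against 177 CPM) were higher in iMPC, against 15.0% of all genes, and Cdkn2b (51.2 against 116 CPM) and Ccnd2 were lower, against 21.9%. The iMPC library mixes all its cell sets, and its make-up was not separated from these 4 ratios. The median log2 ratio of all genes in that comparison was -0.14. Dcn cells against MEF paired cells that both held fibroblast RNA but differed in single collagens, as given above. There Cdkn1b was 6.38-fold higher (77.7 against 12.2 CPM, log2 ratio 2.67) and Ccnd2 lower in Dcn cells. The backgrounds were 12.7% in each direction, and the median over all genes was -0.11. Against non-cycling Pax7 cells, Dcn cells had Ccnd3 alone past 2-fold, lower, against 1.5%, and none higher, against 6.55%. In both comparisons of Dcn cells, marker counts in thinned cells moved the count of genes past 2-fold, to 3 against Pax7 cells and 4 against MEF.

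Cycling and non-cycling cells were then compared within each type. Non-cycling Pax7 cells still held 11.4 CPM of Mki67, 21.4 CPM of Cdk1 and 57.2 CPM of Pcna. Cycling Pax7 cells held 235.9, 348.9 and 169.6 CPM of these genes. The ratios therefore compare cells by their Top2a counts, and not cells known to have left the cycle with dividing ones. In Pax7 cells Cdkn2b and Ccnd2 of 7 genes were past 2-fold lower in cycling cells, against 4.75% of all genes, and none was higher, against 7.1%. Of 5 measured fibroblast markers, Col3a1 (519 against 1231 CPM) and Dcn (20.06 against 120.7 CPM) were past 2-fold lower there as well, and their part in the ratios of Cdkn2b and Ccnd2 was not tested. In Myog cells none of 7 genes passed 2-fold, against 9.1% higher and 5.36% lower, and in MEF cells none of 6 did, against 6.91% and 0.915%. Cdkn2a and Cdkn2b in MEF cells lay just inside that limit, with log2 ratios of -0.99 (-1.03 to -0.95) and -0.97 (-1.08 to -0.86). Without doublet calls both passed 2-fold. The medians over all genes were 0.11 in Pax7 cells, 0.14 in Myog cells and 0.06 in MEF cells. Cdkn1a, Cdkn2b and Cdkn2c had the same direction in all 3 types. Cdkn2a, Ccnd1 and Ccnd2 were lower in cycling Pax7 and MEF cells but higher in cycling Myog cells, where the log2 ratios were 0.44 (0.39 to 0.48), 0.81 (0.73 to 0.89) and 0.57 (0.43 to 0.71). Cycling Myog cells also held less muscle RNA, with Mylpf, a myosin light chain, at 1476 against 6646 CPM, and more Pax7, at 36.9 against 10.3 CPM. All 3 measured fibroblast markers were past 2-fold higher in them, namely Col1a2 (109 against 42.2 CPM), Col3a1 (209 against 95.8 CPM) and Thy1 (78.7 against 32.0 CPM), as was the smooth muscle marker Tagln (60.1 against 28.1 CPM). The part of these differences and of doublets in the 3 ratios was not tested beyond leaving doublet calls out, which gave 0.39, 0.84 and 0.58.

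A minimum of 10 CPM, chosen after the data were seen, brought scarcer genes into the counts in either direction. Of the genes that reached it, 5 of 9 were past 2-fold between libraries, against 36.3% of all genes that did. Between non-cycling Myog and Pax7 cells it gave 6 of 9, against 29.8%. Among cycling Myog and Pax7 cells it gave 2 of 9, against 7.79%. Between Ckm and non-cycling Myog cells it gave 2 of 9, with Ccnd2 added, also against 7.79%. In Dcn cells it gave 2 of 10 against Pax7 cells, with Rb1 added and a background of 8.54%. Against MEF it gave 4 of 10, with Cdkn2c and Rb1 added and a background of 25.9%. The Rb1 log2 ratios, 1.15 against Pax7 cells and 1.09 against MEF, were 0.56 and 0.51 without doublet calls, short of 2-fold. Between cycling and non-cycling cells the minimum of 10 CPM gave 2 of 8 in Pax7 cells, against 12.4%. It gave 1 of 9 in Myog cells (Cdkn2c), against 15.6%, and 2 of 9 in MEF cells (Cdkn1b and Cdkn2c), against 8.74%.

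Levels were also followed over the number of Top2a UMIs per cell, and not every gene moved in steps. In Pax7 cells Cdkn2a went from 1150.0 CPM at 0 UMIs of Top2a to 847 CPM at 1 to 2, 613 CPM at 3 to 9 and 608 CPM at 10 or more, and Cdkn2b from 121 to 63.9, 28.9 and 35.6 CPM. In Myog cells Ccnd1 went from 106 to 138, 168 and 191 CPM over the same steps, while Mylpf went from 6646 to 3559, 2402 and 1234 CPM. Cdkn1a in MEF cells went from 653 to 456, 475 and 558 CPM, lowest at 1 to 2 UMIs, and in Pax7 cells from 524 to 382, 314 and 364 CPM. Ccnd2 in Myog cells went from 34.1 to 40.8, 63.6 and 47.4 CPM, highest at 3 to 9 UMIs. Ccnd3 in MEF cells stayed between 168.5 and 179.7 CPM. Cells with more Top2a UMIs were also deeper, with medians of 14939 UMIs at 0 and 24907 at 10 or more in Pax7 cells.

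**Figure D4:**
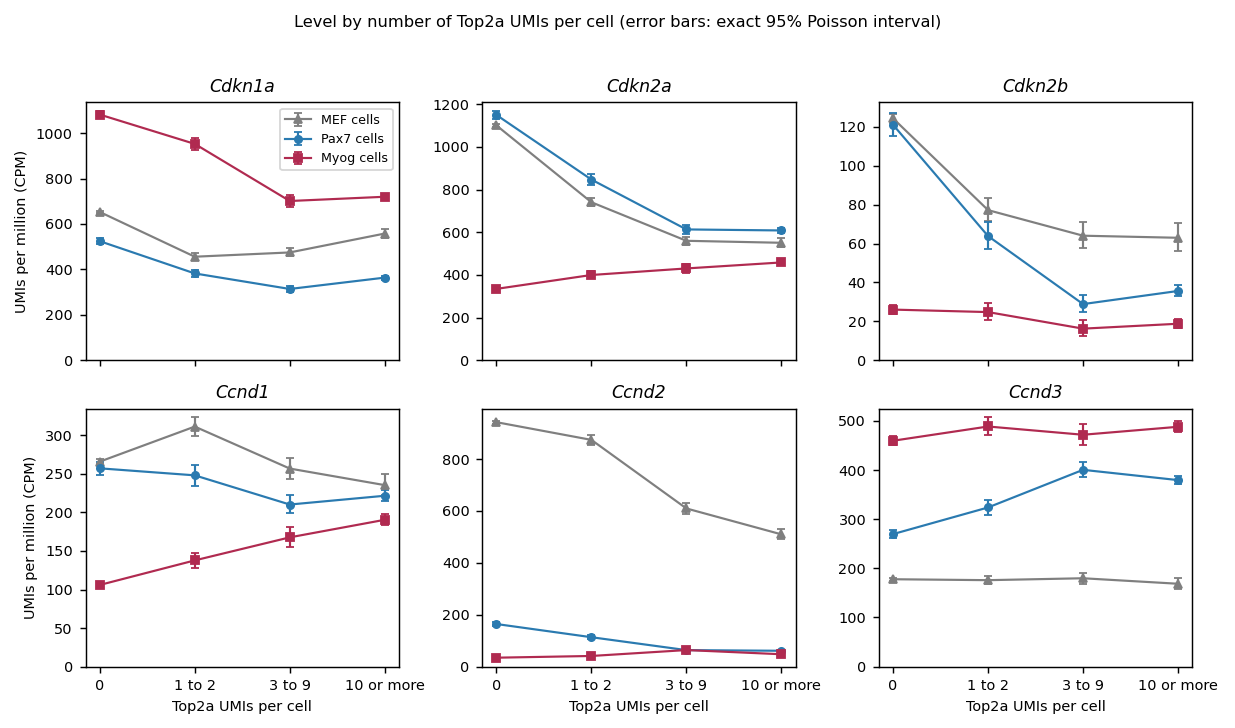
Level of 6 of the genes (vertical axis, CPM) by the number of Top2a UMIs per cell (horizontal axis) in MEF, Pax7 and Myog cells, with exact 95% Poisson intervals. Cdkn2a and Cdkn2b are lower at 3 or more Top2a UMIs than at 0 in Pax7 and MEF cells, Cdkn2a and Ccnd1 climb in Myog cells, and Ccnd3 in MEF cells stays between 168.5 and 179.7 CPM.

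Within the Ckm cells, 704 cells with 5 to 19 UMIs of Ckm held 1318 CPM of Cdkn1a, 75.8 CPM of Rb1, 412 CPM of Ccnd3 and 37.2 CPM of Ccnd1. The 327 cells with 20 to 99 UMIs held 1261, 60.2, 376 and 30.5 CPM of them. All 4 were slightly lower in the cells with more Ckm, with Mylpf at 13160 CPM in the former and 17790 CPM in the latter. Only 6 cells had more Ckm than that and are not described.

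**Figure D5:**
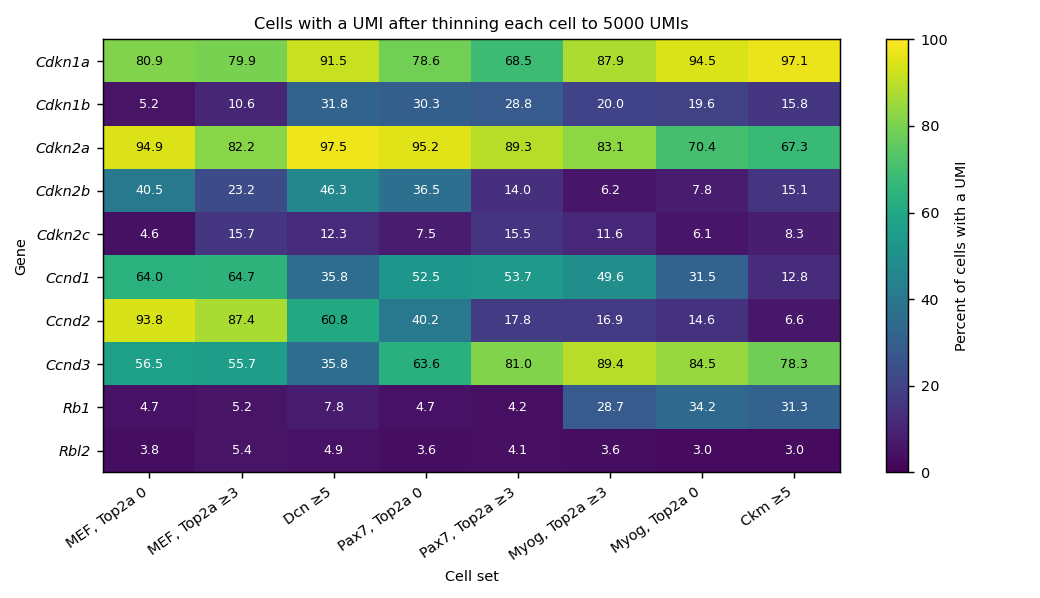
Percent of cells with a UMI of each gene (vertical axis) in 8 cell sets (horizontal axis) after each cell was thinned to 5000 UMIs, as colour and number. Cdkn1a and Cdkn2a are found in most cells of every set, Rb1 in 28.7 to 34.2% of Myog and Ckm cells and at most 7.78% elsewhere, and Ccnd2 in 93.85% of non-cycling MEF cells and 6.56% of Ckm cells.

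Other lists of the pathway place these genes. Between non-cycling Myog and Pax7 cells, Ccne1 of the cyclin E, cyclin A and Cdk2 list was the only one of 4 genes measured, and it was not past 2-fold. Of 12 genes of p53 and its targets, 7 were measured, and 1, Mdm2, was past 2-fold lower (46.1 against 115 CPM, log2 ratio -1.31). Over whole libraries 5 of 9 measured genes of that list were past 2-fold lower in iMPC, against 21.9% of all genes: Mdm2 (64.2 against 198 CPM), Ccng1 (79.7 against 524 CPM), Bax (263 against 772 CPM), Zmat3 (26.7 against 92.1 CPM) and Trp53inp1 (16.4 against 77.2 CPM). None was higher, and the list's median log2 ratio was -1.55 against -0.14 over all genes. Cdkn1a, itself a p53 target, had a log2 ratio of 0.30 (0.29 to 0.32) there. Of 8 Polycomb genes, which repress the locus of Cdkn2a and Cdkn2b, 2 were measured over whole libraries, and both were past 2-fold higher in iMPC, against 15.0% of all genes: Ezh2 at 91.3 against 17.7 CPM and Suz12 at 61.0 against 28.3 CPM. Both were also higher in cycling than in non-cycling MEF cells, by 9.33-fold and 2.28-fold, and 5 of 6 measured genes of G2 and mitosis (Mki67, Cdk1, Ccnb1, Ccnb2 and Cenpf) were past 2-fold higher in iMPC. The part of cycling cells in the Ezh2 and Suz12 ratios was not tested. Ccne1 was 3.43-fold higher in iMPC (81.7 against 23.9 CPM).

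For 8 of the genes, those with at least 50 CPM in their highest set, the 3 genes of most similar level over the 8 sets were found by Pearson r of log2 of CPM plus 1. For Cdkn1a they were Mob1b (r = 0.981), Rhoq (r = 0.964) and Anxa11 (r = 0.963). Those of Cdkn1b were Egln1 (r = 0.963), Mphosph6 (r = 0.957) and Pfkl (r = 0.954). For Cdkn2a they were Acaa1a (r = 0.984), Tgoln1 (r = 0.975) and Fndc3b (r = 0.974). Those of Cdkn2b were Rabac1 (r = 0.9875), Ndfip1 (r = 0.9825) and Stx4a (r = 0.982). For Ccnd1 they included Efemp1 (r = 0.986) and Wtip (r = 0.975). Those of Ccnd2 were Tmbim6 (r = 0.996), Zmat3 (r = 0.995) and Sec31a (r = 0.994). For Ccnd3 they were C1qbp (r = 0.984), Ndufv2 (r = 0.981) and Mdh2 (r = 0.977). Those of Rb1 were Pkia (r = 0.985), Gadd45b (r = 0.983) and Dmwd (r = 0.976). Pkia, for example, stood at 7.21 CPM in non-cycling Pax7 cells, 143 CPM in non-cycling Myog cells and 143 CPM in Ckm cells. The 8 sets share libraries, so each r is a description. With a minimum of 10 CPM, the first gene changed for Cdkn1b, Ccnd1, Ccnd3 and Rb1, to Rlf, Celf4, Wdr83 and Sema3d.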

How the data were processed

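Values analysed were raw counts of UMIs for each gene in each barcode, as deposited, and the file headers name Cell Ranger. The submitters' processing notes name Cell Ranger 4.0, Seurat 3.2.3 and GRCm38.p6, and the annotation is not given in the sources used here. No normalisation by the authors is recorded. The iMPC matrix lists 6794880 barcodes, so cells were called here at 10% of the 99th percentile of the top 10000 barcodes, which gave a minimum of 8036 UMIs. The MEF matrix lists 6113 barcodes, whose selection is not given, and no minimum was set. After removal of cells with over 20% mitochondrial UMIs, 232728796 UMIs of iMPC and 118069653 of MEF remained. The libraries shared 16 cell barcodes.

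Counts were summed per cell set and divided by the set's total (CPM). Intervals are exact Poisson for levels, exact conditional for ratios and Clopper-Pearson for shares. These hold counting error only. With 1 library per group there is no test, so a gene was counted when past 2-fold and at 50 CPM or more in the higher set. Shares were compared after thinning to 5000 UMIs, which left out 284 shallower MEF cells. Doublets were called with Scrublet in scanpy 1.11.5. Its own threshold marked 394 iMPC cells (4.21%) and 2 MEF cells, so the 255 highest-scoring MEF cells (4.22%) were removed in that alternative instead. The calculation of ratios was run on simulated sums that held counting error alone, with no variation between cells, doublets or free RNA. Of 200 genes changed 4-fold between non-cycling Myog and Pax7 cells among 2517 of at least 50 CPM, all 200 were found past 2-fold. At that depth this outcome was nearly certain, so it says nothing about ratios close to 2-fold. Of the genes identified, 25989 of 26100 were in GENCODE M21 (GRCm38). Python 3.11.15, numpy 2.4.6, scipy 1.17.1 and pandas 2.3.3 were used.

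The genes, lists and cell sets were chosen with earlier results of these data known. All 10 genes were named, with their direct partners and, for those of at least 50 CPM, the 3 most similar genes over 8 sets, of which 1 is not reported here. The rule allowed genes of the fixed lists past 2-fold to be named, and only some of them are. Marker genes named beside a result, and the order of presentation, were chosen after values were seen. Alternatives covered UMI and mitochondrial limits, doublets, scaling, thresholds and overlap of the sets, free RNA and thinning.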

Additional observations from a re-analysis of the deposited data

Results flagged for a closer look

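Of 10 genes, 4 had opposite directions between cycling and non-cycling cells in different cell types, with counting intervals that left out 0. Cdkn2a had a log2 ratio of cycling to non-cycling cells of -0.92 in Pax7 cells, -0.99 in MEF cells and 0.44 in Myog cells. Ccnd1 had -0.23, -0.11 and 0.81, and Ccnd2 had -1.42, -0.74 and 0.57 in the same order. Rb1 had -0.34 in Myog cells and 0.34 in MEF cells, the latter from 125 UMIs in cycling cells, but its Myog ratio ran from -0.48 to 0.19 over the alternatives, so that direction is not settled. These differences were not tested, since each cell type came from 1 library.

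All 10 genes were also found in 48846 iMPC barcodes of 200 to 600 UMIs, which are below the size of a cell. Their levels there were 463 CPM for Cdkn1a, 34.3 for Cdkn1b, 343 for Cdkn2a, 24.1 for Cdkn2b, 12.1 for Cdkn2c, 66.9 for Ccnd1, 38.0 for Ccnd2, 323 for Ccnd3, 43.0 for Rb1 and 3.95 for Rbl2. A count of 0 would allow 0.141 CPM. Rb1 was at the level of the kept iMPC cells (42.0 CPM), Ccnd3 close below it (373 CPM), and Ccnd1 less than it (156 CPM).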

How the results depend on the processing

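No paired analysis was possible because each group held 1 library and no result came from a test, and for the same reason no replicate could be left out. Of 216 alternative values of the 18 ratios past 2-fold, 212 stayed past it and 0 reversed. The other 4, all as a mean of each cell's own CPM, were Cdkn1a in non-cycling and cycling Myog against Pax7 cells (0.94 and 0.96), Ccnd1 in the former (-0.96) and Cdkn2b between libraries (-0.91). Counts near the limit moved. In cycling against non-cycling MEF cells the count of genes past 2-fold was 0, and it was 2 without doublets, 3 with the total free of mitochondrial and ribosomal protein genes, 2 with median-of-ratios scaling, 1 as a mean of cells, 2 with marker counts in thinned cells and 2 at a minimum of 10 CPM, an alternative added after the data were seen. That minimum also gave 1 in place of 0 for cycling Myog cells, 2 in place of 1 for Ckm cells and for Dcn against Pax7 cells, and 4 in place of 2 for Dcn cells against MEF. Rb1, counted in Dcn cells there, fell short of 2-fold without doublet calls. Ckm cells had 2 with the total free of mitochondrial and ribosomal protein genes. Cycling Myog against Pax7 cells had 1 in place of 2 as a mean of cells. Dcn against Pax7 cells had 2 with stricter marker counts, 3 in thinned cells and 2 with cells of 1 marker rule, and Dcn cells against MEF had 4 in thinned cells. The share of Ccnd3 among D cyclin UMIs in non-cycling Myog cells, 76.65%, was 74.6% as a mean of cells, 77.7% with stricter marker counts and 81.6% in thinned cells. The median over the 10 genes of the share of all kept iMPC cells with a UMI, 24.2%, was 12.3% at 2000 UMIs, 54.6% unthinned and 8.40% for at least 2 UMIs. Rb1 in cycling against non-cycling Myog cells ran from -0.48 to 0.19 over the alternatives, so its direction there is not settled. The cause of these shifts was not tested. Rbl2 was limited by depth, and Cdkn2c was kept out of the counts by the minimum of 50 CPM.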

Other observations

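Single cells of a set varied widely in Cdkn1c, the p57 gene, whose log2 ratio of non-cycling Myog to Pax7 cells (3.87) was above those of the 10 genes. The 10% of non-cycling Pax7 cells with the most Cdkn1c UMIs after thinning held 61.5% of them, against 29.2% in non-cycling Myog cells. Its variance over its mean was 5.52 and 15.9. For Cdkn1a the corresponding shares were 31.4% and 26.2%, with 2.46 and 2.83, and for Cdkn2a 25.3% and 34.9%, with 3.26 and 2.06. Mean UMIs per thinned cell were 1.21 and 18.2 for Cdkn1c, 2.62 and 5.09 for Cdkn1a, and 5.83 and 1.64 for Cdkn2a, and such a share also moves with the mean.

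Cdkn2a and Cdkn2b were also found together in single thinned cells, one of 8 pairs of genes looked at in 8 sets, chosen after values were seen. In non-cycling Pax7 cells 325 of 892 cells held both, against 310 if the genes were independent, and in non-cycling MEF cells 1959 of 4993 held both, against 1917. The log2 odds ratios were 4.70 (2.13 to 10.04) and 1.16 (0.73 to 1.61). Of 326 non-cycling Pax7 cells with Cdkn2b, 325 held Cdkn2a, so the first value rests on few cells. Values were 3.54 in Dcn, 1.84 in cycling Pax7 and 1.64 in cycling MEF cells. In non-cycling Myog, Ckm and cycling Myog cells they were 0.70, 0.48 and -0.26 (-1.54 to 1.22), with intervals that held 0. An excess was not particular to this pair. In non-cycling MEF cells the value was 1.45 (1.06 to 1.84) for Cdkn1a with Cdkn2a and 1.49 (0.80 to 2.25) for Cdkn1a with Rb1. It was 0.94 (0.59 to 1.29) there for Ccnd2 with Ccnd3, but -0.78 (-1.20 to -0.37) in non-cycling Pax7 cells. Cdkn1b with Ccnd1 had 0.01 (-0.37 to 0.40) in non-cycling MEF cells. The intervals take cells as independent, and cells of 1 library are not replicates.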
